A study of Vitis vinifera with 36 samples.

Results

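The comparison described here is the early ripening step of the summer crop of the grape (Vitis vinifera) cultivar Victoria, E-L 36 against E-L 35. It was chosen by the stage, cultivar and crop given in the labels, and it holds 6 of the 36 libraries of the series, 3 at E-L 36 and 3 at E-L 35. E-L numbers are stages of the Eichhorn-Lorenz scale of grapevine growth: at E-L 36 berries have intermediate sugar, at E-L 35 they begin to soften and colour (veraison), and at E-L 38 they are ripe for harvest. Other groups used below are Victoria at E-L 38 in summer, Muscat Superior at E-L 36 and E-L 35 in summer, and Victoria at E-L 36 and E-L 35 in winter, each with 3 libraries. All vines were grafted, grew under rain shelter in southern China in 2014, and were made to crop in summer and again in winter by pruning and hydrogen cyanamide. Each biological replicate was a pool of 50 berries, from which seeds were removed before RNA was taken from the whole pericarp (skin and flesh). In such bulk samples fewer cells of a type and less RNA per cell cannot be told apart. Nor can ripening stage and sampling time be told apart in the step from E-L 35 to E-L 36.

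Veraison is the point at which the grape berry turns from a hard, green, acid fruit into a soft, sweet one. Sugar arrives from the leaves as sucrose, is cleaved into hexoses and is stored in the vacuole, while expansins and pectin-degrading enzymes loosen the cell wall. The phenylpropanoid pathway, which starts with phenylalanine ammonia-lyase, feeds flavonoids (tannins, flavonols, anthocyanins) and the stilbenes, which are defence compounds. Abscisic acid, made from carotenoids, and transcription factors of the NAC, MADS-box and MYB families are known as regulators of this phase.

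Genes carry VIT_2 identifiers, and none of the 28119 identifiers was paired with a name in the files or in the supplied gene table. The 19 lists used below hold 226 loci recalled from published grape gene families, of which 217 were in the files. No annotation was at hand to check what they are, and a 2 was inserted into each identifier to fit its version, which is an assumption. A locus is therefore described as what it is listed as. Of these loci, 190 had enough reads to be tested.

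Libraries of E-L 36 summed to 12678743, 9061555 and 9837224 estimated counts, and libraries of E-L 35 to 16799760, 18606068 and 15334749. Between 21644 and 21891 genes had reads in an E-L 36 library, against 23204 to 23569 in an E-L 35 library. The library labelled E-L 36 replicate 1 stood apart from its group. Its log2 levels correlated with those of replicates 2 and 3 of E-L 36 at 0.9493 and 0.9507, against 0.9896 between those replicates, and with replicates 2 and 3 of E-L 38 at 0.9776 and 0.9827. In 72.3% of genes it was nearer to the mean of those 2 E-L 38 libraries than to that of replicates 2 and 3 of E-L 36. The library labelled E-L 38 replicate 1 was in 56.4% of genes nearer to replicates 2 and 3 of E-L 36 than to its own group. Labels were kept as given, and results are also stated without E-L 36 replicate 1. Since these same data singled that library out, adjusted p-values without it are no independent check.

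**Figure D1:**
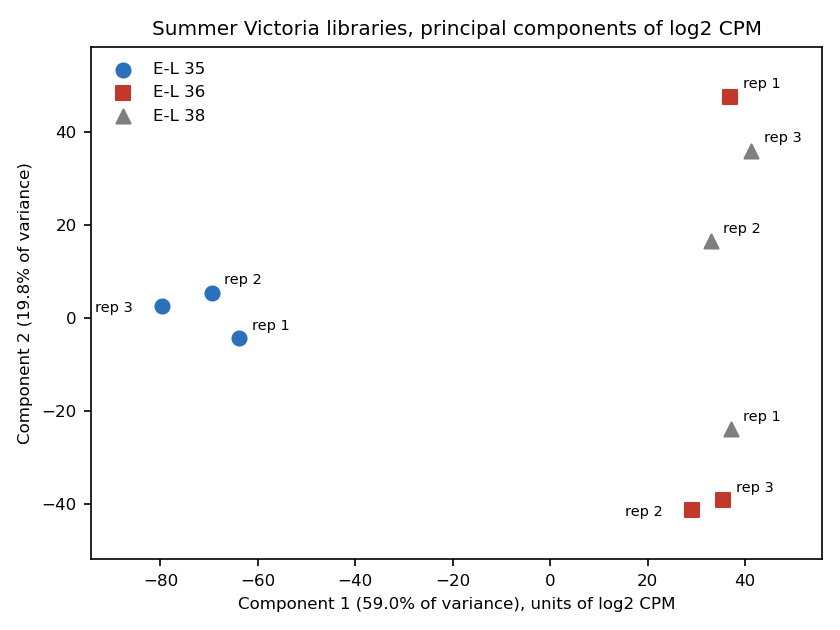
Principal components of log2 CPM in the 9 summer Victoria libraries, with component 1 (59.0% of the variance) on the horizontal and component 2 (19.8%) on the vertical axis. Points are libraries, coloured by labelled stage. Component 1 separates E-L 35 from both later stages, and on component 2 E-L 36 replicate 1 lies at 47.6, while E-L 36 replicates 2 and 3 lie at -41.1 and -39.1.

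The early step touched a large share of the berry's genes. By edgeR's quasi-likelihood test with Benjamini-Hochberg adjustment, 7510 of 18842 tested genes were called at an adjusted p below 0.05, which is 39.9%. Of these, 3797 (20.2% of the genes tested) were higher at E-L 36 and 3713 (19.7%) were lower. The median size of a called change was 0.83 on the log2 scale, and 3014 genes changed at least 2-fold, 1296 up and 1718 down. Without E-L 36 replicate 1, 7940 of 19295 genes were called (41.2%), 3925 higher and 4015 lower. With all 6 libraries, those of E-L 36 and E-L 35 did not overlap in 48.9% of tested genes. Called in the same direction with and without that library were 6364 genes. The split between directions rested on the scaling: 50.6% of calls were higher with TMM normalization, but 25.9% with library totals alone (44.8% of genes called), which moved the median log2 fold change of all genes to -0.29 from -0.04. Presence or absence was rare, since 2 genes were at 0 in all E-L 36 libraries and at 1 CPM (the count scaled to a common library size) or more in every E-L 35 library, and 2 genes showed the reverse.

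Of the 190 tested list members, 73 were called higher and 24 lower at E-L 36. Higher calls were most frequent in the phenylpropanoid entry and stilbene synthase lists, which gave 13 and 32 of the 73. Many members of these 2 lists had fractional counts, as where copies share reads. They are not separate observations, so the 73 can overstate the number of separate rises. Calls were in the lower direction only in the carotenoid and small heat shock lists, while sugar transport, cell wall, NAC and MADS-box lists held members that rose and members that fell. Over all tested genes 20.2% were called higher and 19.7% lower. Counts in the flavonoid core, anthocyanin, abscisic acid, sugar transport, sucrose cleavage, cell wall and NAC lists cannot be told apart from those shares. The same holds for the MADS-box, lipoxygenase and terpenoid lists. Such counts are not read as a response of the family.

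**Figure D2:**
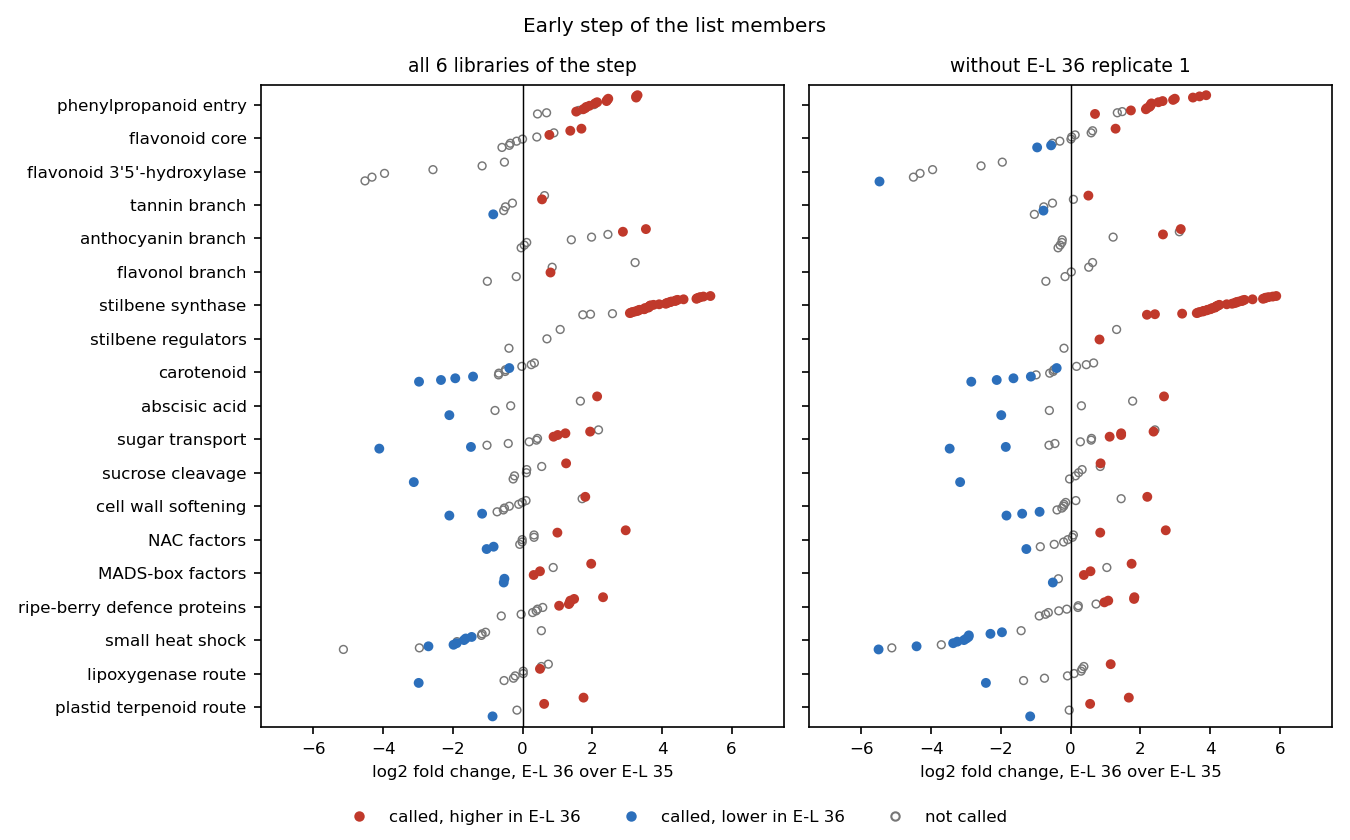
Log2 fold change of E-L 36 over E-L 35 (horizontal axis) for every tested member of each list (rows), from all 6 libraries of the step on the left and without E-L 36 replicate 1 on the right. Filled points passed the test, red when higher and blue when lower at E-L 36, and open points did not. Called stilbene synthase members reach 5.39 on the left.

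Phenylalanine ammonia-lyase turns phenylalanine into cinnamate, which cinnamate 4-hydroxylase and 4-coumarate CoA ligase carry on to the activated acid that flavonoids and stilbenes share. In the phenylpropanoid entry list 13 of 17 tested members rose, 0 fell and the median log2 fold change was 2.05. Summed over the list, levels were 109, 403 and 373 CPM at E-L 36, against 116, 63.5 and 76.8 CPM at E-L 35. E-L 36 replicate 1 thus lay within the E-L 35 range, and without it 15 of 17 rose. In a fit of the 6 libraries alone, which called 31.6% of all genes, 5 members rose.

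VIT_206s0004g08150, listed as a cinnamate 4-hydroxylase, had 32.6, 57.9 and 45.5 CPM at E-L 36, against 20.3, 11.2 and 15.1 CPM at E-L 35. The stages did not overlap, and its log2 fold change was 1.54 ± 0.22 (SE, adjusted p = 7.27e-05, edgeR). VIT_213s0019g04460, listed as a phenylalanine ammonia-lyase, had 8.95, 11.8 and 7.84 CPM at E-L 36 and 3.1, 1.32 and 2.08 CPM at E-L 35, a log2 fold change of 2.14 ± 0.30 (SE, adjusted p = 7.28e-05). Counts of these 2 loci were whole numbers, to within 0.005 of a count, in every library with reads.

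Other listed ammonia-lyase loci followed replicates 2 and 3 of E-L 36. VIT_216s0039g01110 had 1.81, 16.4 and 20.6 CPM at E-L 36, against 3.05, 1.23 and 2.73 CPM at E-L 35, with a log2 fold change of 2.46 ± 0.60 (SE, adjusted p = 0.00464). VIT_216s0039g01240 had 3.12, 12.1 and 15.2 CPM at E-L 36, against 0.8, 1.27 and 1.04 CPM at E-L 35, and here all 3 libraries were above E-L 35. VIT_216s0039g01300 stood at 0.0821, 15.4 and 21.7 CPM at E-L 36 and 1.6, 1.64 and 0.437 CPM at E-L 35, so that replicate 1 was the lowest of the 6 (log2 fold change 3.30, adjusted p = 0.0388, and 3.89 without it, adjusted p = 0.00469). VIT_206s0004g02620 behaved the other way, with 12.8 CPM in replicate 1 and 3.52 and 3.36 CPM in the others at E-L 36, against 2.15, 0.637 and 0.928 CPM at E-L 35, and its log2 fold change of 2.43 was 1.48 without replicate 1, where the call was lost (adjusted p = 0.118). The 10 tested members in the VIT_216s0039 cluster had fractional counts in nearly all libraries, as where reads are divided between copies, so their single values are uncertain.

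Stilbene synthase competes with chalcone synthase for the same substrates and makes resveratrol. Of 47 loci listed, 42 were in the files and 35 were tested, and 32 of these rose while 0 fell, with a median log2 fold change of 3.67. Folds of the called members ran from 8.46 to 41.9, with a median of 14.3. Summed levels of the list were 40.5, 497 and 506 CPM at E-L 36, against 32.7, 21.3 and 26 CPM at E-L 35. Replicates 2 and 3 thus held the rise, while replicate 1 was slightly above E-L 35. Without replicate 1, 36 of 37 tested members rose, and in the fit of the 6 libraries alone 19 did.

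VIT_216s0100g00830 had the largest log2 fold change among the listed stilbene synthases that the naming rule took, 5.39 ± 1.03 (SE, adjusted p = 0.000831), from 1.07, 8.43 and 8.65 CPM at E-L 36, against 0.4, 0 and 0 CPM at E-L 35. VIT_210s0042g00920 had 0.574, 12.9 and 11.8 CPM at E-L 36, against 0.7, 0 and 0.0546 CPM at E-L 35. VIT_216s0100g00850 was at 0, 7.79 and 7.94 CPM at E-L 36 and 0.15, 0.227 and 0 CPM at E-L 35, and VIT_216s0100g00920 at 0, 7.15 and 8.45 CPM at E-L 36 and 0.6, 0 and 0 CPM at E-L 35. In these 3 loci replicate 1 overlapped the E-L 35 libraries. Without it, the log2 fold change of VIT_216s0100g00850 was 5.80, against 5.19 with it, and that of VIT_216s0100g00920 was 5.22, against 4.62. Counts free of fractions (within 0.005 of a whole number) in 80% of libraries or more were found for 2.86% of its tested members and for 73% of all tested genes, so the value of any single copy is uncertain. None of the 3 listed stilbene regulators passed the test. WRKY03, listed as VIT_201s0010g03930, had 15.5, 19.5 and 19.9 CPM at E-L 36, against 12.1, 10.1 and 11.5 CPM at E-L 35 (adjusted p = 0.0532, and 0.0415 without replicate 1).

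**Figure D3:**
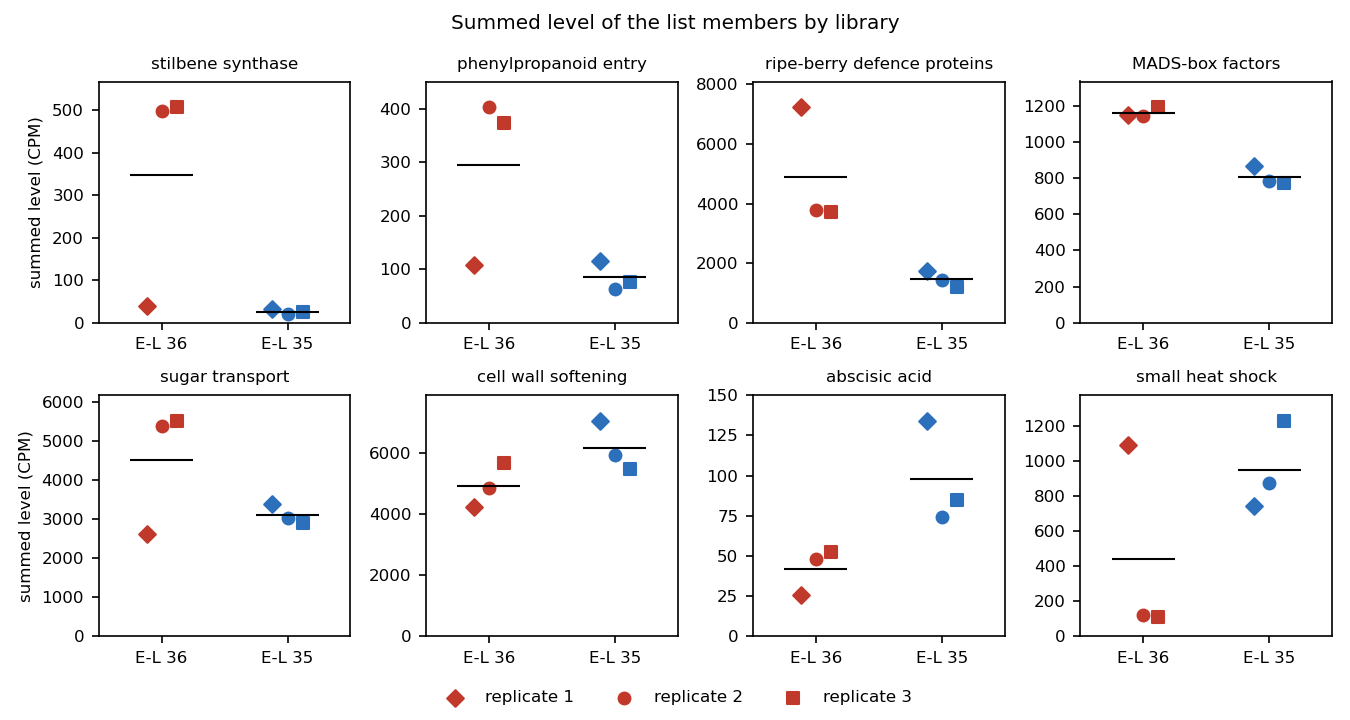
Summed level in CPM of 8 lists (panels) in each E-L 36 library (red, left) and E-L 35 library (blue, right), with symbols for the replicate and a line at the mean. E-L 36 replicate 1 (diamond) lies near E-L 35 in the stilbene synthase list (40.5 CPM) and the small heat shock list (1090 CPM), while all 3 E-L 36 libraries lie above E-L 35 in the MADS-box and defence lists.

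Chalcone synthase, chalcone isomerase and flavanone 3-hydroxylase form the core of the flavonoid route. Of its 10 tested members 3 rose and 0 fell, with a median log2 fold change of 0.20 that was -0.04 with library totals alone, but without replicate 1 the count was 1 up and 2 down, and with library totals alone likewise 1 up and 2 down. VIT_218s0001g14310, listed as a flavanone 3-hydroxylase, had 144, 118 and 102 CPM at E-L 36, against 85.9, 68.4 and 59.7 CPM at E-L 35, with no overlap (log2 fold change 0.77 ± 0.23, SE, adjusted p = 0.0139, and 0.0522 without replicate 1). VIT_214s0068g00920, listed as a chalcone synthase, had 38.4, 26.3 and 13 CPM at E-L 36 and 14.4, 4.09 and 5.57 CPM at E-L 35 (adjusted p = 0.00556). The other listed flavanone 3-hydroxylase, VIT_204s0023g03370, rested on replicate 1, with 47.6, 9.61 and 7.64 CPM at E-L 36 and 11.9, 7.05 and 6.33 CPM at E-L 35, and its log2 fold change of 1.37 dropped to 0.03 without that library. Listed loci of dihydroflavonol reductase (log2 fold change 0.00) and leucoanthocyanidin dioxygenase (-0.35) did not pass. Neither did the listed flavonoid 3'-hydroxylases VIT_217s0000g07200 and VIT_217s0000g07210. Their FPKM (reads per kilobase of transcript, scaled to the library) averaged 24.7 and 2.97 at E-L 36, against 38.6 and 5.32 at E-L 35. Unlike CPM and the test, FPKM are not TMM-scaled, and over all genes their median log2 fold change was -0.24 (log2(FPKM + 1)). The other listed chalcone synthase, VIT_205s0136g00260, averaged 14.9 at E-L 36 and 9.72 at E-L 35 and did not pass. Flavonoid 3'5'-hydroxylases, which set the blue tone of pigments, were near the detection limit: 6 of 12 loci in the files were tested, and their sum was 1.15, 0.107 and 0.102 CPM at E-L 36 and 0.75, 1.59 and 2.84 CPM at E-L 35, with 0 calls. Without replicate 1 a single member was called lower, VIT_206s0009g03010 (adjusted p = 0.0165), which had 0.821, 0 and 0 CPM at E-L 36 and 0.5, 0.227 and 0.655 CPM at E-L 35.

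In the anthocyanin list 2 of 8 tested members rose, both listed as MYBA regulators, which are known to switch on the last step of anthocyanin formation. VIT_202s0033g00390 had 35.7, 23.1 and 14.6 CPM at E-L 36, against 2.4, 1.73 and 2.18 CPM at E-L 35. Every E-L 36 library was above every E-L 35 library, and the log2 fold change was 3.54 ± 0.40 (SE, adjusted p = 1.47e-05) or 3.16 without replicate 1. VIT_202s0033g00450 had 10.3, 8.65 and 4.99 CPM at E-L 36, against 1.3, 1.05 and 0.874 CPM at E-L 35, also without overlap (2.88 ± 0.54, SE, adjusted p = 0.000685). Another listed MYBA regulator, VIT_202s0033g00410, had few reads and did not pass. Its FPKM were 0, 0.63 and 0 at E-L 36 and 0, 0.09 and 0 at E-L 35. The locus listed as the anthocyanin glucosyltransferase that adds the sugar, VIT_216s0039g02230, had 29.5, 17.5 and 14.5 CPM at E-L 36 and 18.3, 21.8 and 16.6 CPM at E-L 35 and did not pass (adjusted p = 0.69). The listed O-methyltransferase VIT_201s0010g03510 was at 0.164, 0.107 and 0 CPM at E-L 36 and 0.05, 0 and 0 CPM at E-L 35. Reads of MYBA copies can be shared, and 2 of the 8 members of this list had counts free of fractions, by the same 0.005, in 80% of libraries or more.

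In the tannin list 2 of 6 tested members were called and in the flavonol list 1 of 5. With lists this small, these shares cannot be told apart from the 39.9% of all tested genes. Among the tannin members, the loci listed as MYB5 regulators went in opposite directions. VIT_206s0004g00570 rose, with 30, 25.7 and 27.8 CPM at E-L 36 and 22.1, 15.9 and 18.6 CPM at E-L 35 (log2 fold change 0.56 ± 0.13, SE, adjusted p = 0.00299), although with library totals alone it missed the threshold (adjusted p = 0.0604). VIT_208s0007g07230 fell, with 5.5, 12.5 and 13.3 CPM at E-L 36 and 20.8, 17 and 17.9 CPM at E-L 35 (adjusted p = 0.0478, and 0.154 without replicate 1). Of 5 flavonol members 1 rose, VIT_204s0008g05210, listed as a HY5 or HYH light regulator, which had 31.6, 21.6 and 17.5 CPM at E-L 36 and 16.8, 11.6 and 12.3 CPM at E-L 35 (adjusted p = 0.0201, and 0.107 without replicate 1). Tannin genes are also high in seed coats, so they served with VIT_218s0041g01880, listed as an ovule and seed MADS-box gene, as a check on seed tissue. That locus had 22.1, 41.4 and 23.2 CPM at E-L 36 and 37, 6.91 and 3 CPM at E-L 35, and the summed tannin list had 109, 86.6 and 75.7 CPM at E-L 36 and 140, 89.7 and 94.6 CPM at E-L 35. Whether seed remnants had a part in any result was not tested.

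Carotenoid genes make the pigments of the plastid and the precursors of abscisic acid and of aroma norisoprenoids. Among 12 tested members 0 rose, 5 fell and 7 did not pass, against 19.7% called lower over all tested genes. The median log2 fold change was -0.59. The count of falls was also 5 without replicate 1 and was 6 with library totals alone. VIT_204s0079g00680, listed as phytoene synthase, the committed step, had 5.91, 13.6 and 11.7 CPM at E-L 36, against 48, 32.4 and 37.6 CPM at E-L 35. The stages did not overlap, and the log2 fold change was -1.93 ± 0.35 (SE, adjusted p = 0.000531). The other listed phytoene synthase, VIT_212s0028g00960, averaged 4.04 FPKM at E-L 36 and 7.7 FPKM at E-L 35 and did not pass. Neither did the listed loci of zeta-carotene desaturase, zeaxanthin epoxidase and violaxanthin de-epoxidase. VIT_216s0050g01090, listed as a beta-carotene hydroxylase, had 2.05, 2.99 and 2.34 CPM at E-L 36, against 24.5, 15.6 and 17.5 CPM at E-L 35, a log2 fold change of -2.97 ± 0.44 (SE, adjusted p = 0.000116). VIT_209s0002g00100, listed as phytoene desaturase, fell by 0.38 on the log2 scale, from libraries at 35.6, 37.6 and 30.6 CPM at E-L 36 and at 50.8, 43.7 and 40.8 CPM at E-L 35 (adjusted p = 0.0336). The listed cleavage dioxygenase VIT_213s0064g00840, of a family that releases norisoprenoids, had 215, 336 and 346 CPM at E-L 36 and 289, 298 and 321 CPM at E-L 35 and did not pass (adjusted p = 0.97).

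For abscisic acid, a synthesis locus fell and a breakdown locus rose. VIT_219s0093g00550, listed as a 9-cis-epoxycarotenoid dioxygenase, the rate-limiting enzyme of synthesis, had 14.7, 13.6 and 23.4 CPM at E-L 36, against 104, 51.9 and 65 CPM at E-L 35, without overlap (log2 fold change -2.10 ± 0.53, SE, adjusted p = 0.00547). VIT_202s0087g00710, listed as an abscisic acid 8'-hydroxylase, which inactivates the hormone, had 1.31, 17.2 and 16.5 CPM at E-L 36, against 3.4, 2.41 and 2.02 CPM at E-L 35. Replicate 1 was below E-L 35 there, and the log2 fold change was 2.14 ± 0.64 (SE, adjusted p = 0.0156) or 2.68 without it. This second call was lost in the fit of the 6 libraries alone (adjusted p = 0.0755). The other 3 of the 5 tested members did not pass, among them the listed dioxygenase VIT_210s0003g03750, with 9.11, 15.6 and 11.8 CPM at E-L 36 and 25.2, 19.8 and 17.7 CPM at E-L 35 (adjusted p = 0.285). Counts of VIT_219s0093g00550 were within 0.005 of a whole number in only 0.083 of the libraries with reads, so its values are uncertain.

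Of 12 tested sugar transport members 4 rose and 2 fell (median log2 fold change 0.42), and with library totals alone 2 rose and 4 fell. VIT_201s0026g01960, listed as a sucrose transporter, had 67.2, 123 and 108 CPM at E-L 36, against 46.3, 42 and 39 CPM at E-L 35, without overlap (log2 fold change 1.23 ± 0.28, SE, adjusted p = 0.00279). VIT_201s0146g00260, listed as a SWEET transporter, a family that lets sugars out of cells down their gradient, had 479, 2120 and 2270 CPM at E-L 36, against 883, 780 and 753 CPM at E-L 35. Replicate 1 was the lowest of the 6 libraries, and the adjusted p was 0.0398 with it and 1.03e-05 without it. VIT_203s0038g03940, listed as a tonoplast monosaccharide transporter, which loads the vacuole, had 138, 228 and 271 CPM at E-L 36 and 101, 128 and 115 CPM at E-L 35 (adjusted p = 0.015, and 0.0667 with library totals alone).

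Listed hexose transporters diverged. VIT_200s0181g00010 had 23.6, 83.8 and 129 CPM at E-L 36, against 33.4, 13.6 and 14.4 CPM at E-L 35 (log2 fold change 1.94 ± 0.48, SE, adjusted p = 0.00519), with replicate 1 again inside the E-L 35 range. VIT_211s0149g00050 had 54.9, 27.6 and 30.2 CPM at E-L 36, against 110, 100 and 106 CPM at E-L 35, without overlap (-1.48 ± 0.23, SE, adjusted p = 0.000183). Between 2 listed members of high level, FPKM (reads per kilobase of transcript, scaled to the library without TMM) were compared. They averaged 427 at E-L 36 and 249 at E-L 35 for VIT_201s0146g00260. For the SWEET locus VIT_217s0000g00830, which did not pass (adjusted p = 0.323), they averaged 837 at E-L 36 and 738 at E-L 35.

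Among sucrose cleavage enzymes an invertase locus fell and a sucrose synthase locus rose. VIT_202s0154g00090, listed as a vacuolar invertase, had 10.8, 9.82 and 9.67 CPM at E-L 36, against 102, 76.8 and 85 CPM at E-L 35, so all 3 E-L 36 libraries were low and close together (log2 fold change -3.12 ± 0.49, SE, adjusted p = 0.000195). The other listed vacuolar invertase, VIT_216s0022g00670, had 36.8, 235 and 166 CPM at E-L 36 and 139, 158 and 218 CPM at E-L 35 and did not pass (adjusted p = 0.736). VIT_207s0005g00750, listed as a sucrose synthase, had 3390, 1640 and 1880 CPM at E-L 36, against 1050, 1080 and 780 CPM at E-L 35 (1.25 ± 0.30, SE, adjusted p = 0.00423). The remaining 4 of the 7 tested members did not pass.

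Alpha-expansins loosen the bonds between wall polymers. Of the 8 listed loci 1 rose, 2 fell and the others did not pass. VIT_217s0053g00990 had 85.1, 253 and 353 CPM at E-L 36, against 76.3, 73.8 and 47.7 CPM at E-L 35 (log2 fold change 1.80 ± 0.36, SE, adjusted p = 0.0012). VIT_213s0067g02930 had 805, 504 and 547 CPM at E-L 36, against 1520, 1330 and 1280 CPM at E-L 35 (-1.16 ± 0.31, SE, adjusted p = 0.00879). VIT_206s0004g00070 had 4.6, 9.39 and 8.04 CPM at E-L 36, against 33.2, 28.5 and 31.9 CPM at E-L 35 (-2.10 ± 0.54, SE, adjusted p = 0.00634). None of these 3 overlapped between the stages, and over the 11 tested cell wall members 1 rose and 2 fell, against 3 falls without replicate 1 and 4 with library totals alone. Listed loci of pectate lyase (log2 fold change -0.52), xyloglucan endotransglucosylase (0.10) and polygalacturonase (1.71) did not pass.

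Of 9 tested NAC members 2 rose and 2 fell, shares near the 20.2% higher and 19.7% lower of all tested genes. VIT_208s0007g07640, listed as a NAC factor, had 127, 86.5 and 81.5 CPM at E-L 36, against 14.3, 13.5 and 10.2 CPM at E-L 35 (log2 fold change 2.96 ± 0.47, SE, adjusted p = 0.00022). Its neighbour in the list, VIT_208s0007g07670, had 65.5, 47.7 and 50.1 CPM at E-L 36 and 32, 25.4 and 24.1 CPM at E-L 35 (1.00 ± 0.24, SE, adjusted p = 0.00357). VIT_219s0027g00230 had 30.8, 20.7 and 19.5 CPM at E-L 36, against 67.4, 43.5 and 34.7 CPM at E-L 35 (-1.03 ± 0.25, SE, adjusted p = 0.00406). VIT_214s0108g01070 also fell, with 4.92, 5.12 and 3.87 CPM at E-L 36 and 13.1, 5.96 and 5.68 CPM at E-L 35 (adjusted p = 0.035, and 0.0569 without replicate 1). The stages did not overlap in any of these 4 loci, and the other 5 tested NAC members did not pass.

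Of 6 tested MADS-box members 3 rose and 2 fell, against 3 and 1 without replicate 1, and 1 and 2 with library totals alone. With so few members, these counts cannot be told apart from the 20.2% higher and 19.7% lower of all tested genes. VIT_213s0158g00100 had 362, 237 and 250 CPM at E-L 36, against 82.7, 71.2 and 62.7 CPM at E-L 35 (log2 fold change 1.97 ± 0.26, SE, adjusted p = 5.31e-05). Smaller rises were 0.50 ± 0.12 on the log2 scale (SE) for VIT_212s0142g00360, with 174, 195 and 202 CPM at E-L 36 and 137, 133 and 133 CPM at E-L 35, and 0.32 ± 0.12 (SE) for VIT_201s0010g03900, and both calls were lost with library totals alone (adjusted p = 0.115 and 0.665). VIT_214s0083g01050 had 28.2, 30.5 and 29.1 CPM at E-L 36, against 42.6, 42.4 and 42.4 CPM at E-L 35, without overlap (-0.54 ± 0.13, SE, adjusted p = 0.00432). VIT_210s0003g02070 fell by 0.52 on the log2 scale (adjusted p = 0.0427, and 0.155 without replicate 1).

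**Figure D4:**
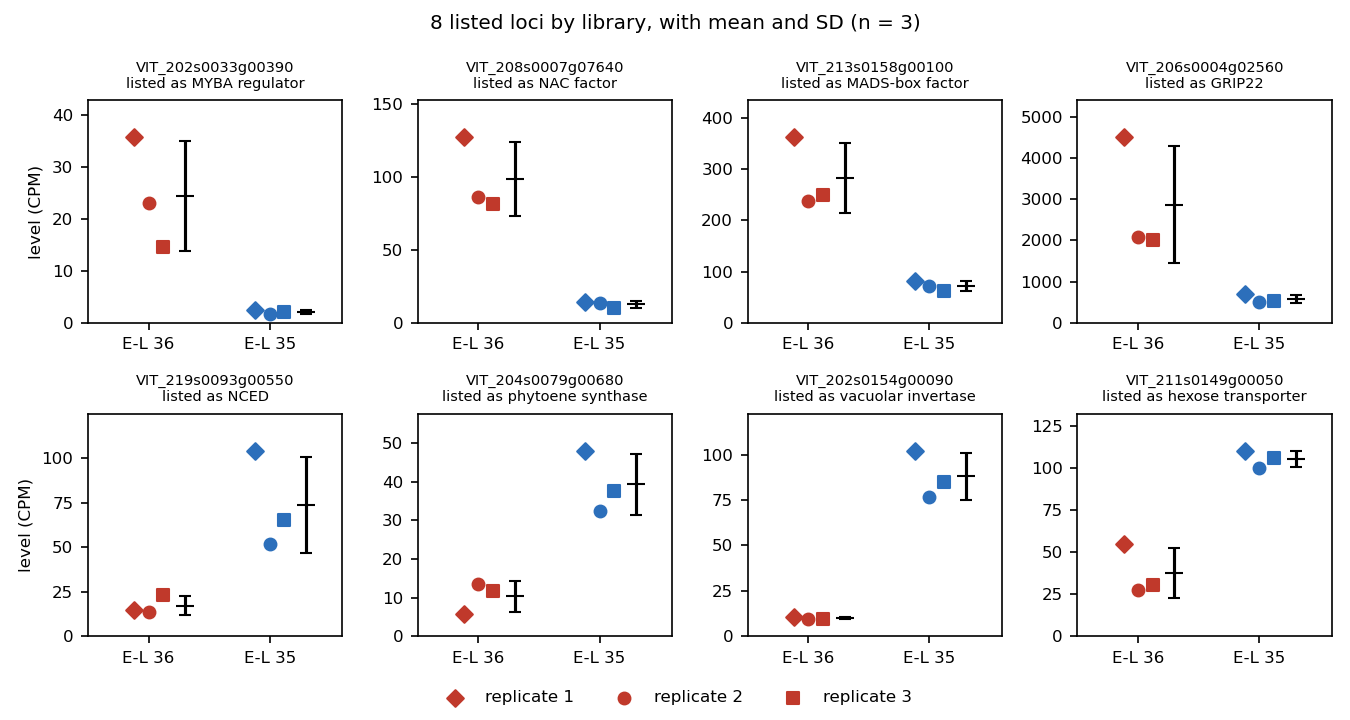
Level in CPM of 8 listed loci (panels) in each E-L 36 library (red, left) and E-L 35 library (blue, right), with symbols for the replicate and a bar at the mean ± SD (n = 3). The upper 4 loci were higher at E-L 36 and the lower 4 lower, with no overlap between the stages in any panel, from 35.7, 23.1 and 14.6 CPM against 2.4, 1.73 and 2.18 CPM in the first to 54.9, 27.6 and 30.2 CPM against 110, 100 and 106 CPM in the last.

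Chitinases and thaumatin-like proteins accumulate in ripening berries and are active against fungi. In the defence list 6 of 12 tested members rose and 0 fell, against 4 rises without replicate 1 and 5 with library totals alone. The median log2 fold change of 0.81 was 0.22 without replicate 1. VIT_206s0004g02560, listed as the ripening-induced protein GRIP22, had 4500, 2090 and 2010 CPM at E-L 36, against 695, 505 and 531 CPM at E-L 35 (log2 fold change 2.31 ± 0.38, SE, adjusted p = 0.000274). VIT_205s0094g00340, listed as a class IV chitinase, had 2190, 1380 and 1390 CPM at E-L 36, against 814, 646 and 507 CPM at E-L 35 (1.33 ± 0.26, SE, adjusted p = 0.000786). Another listed chitinase, VIT_205s0094g00360, had 36.1, 94.8 and 103 CPM at E-L 36 and 36.8, 22.1 and 25 CPM at E-L 35 (adjusted p = 0.00407). VIT_202s0025g04340, listed as a thaumatin-like protein, had 56.5, 31.7 and 26.1 CPM at E-L 36 and 16.1, 14.9 and 13.2 CPM at E-L 35 (adjusted p = 0.00488). The chitinase locus VIT_205s0094g00350 rested on replicate 1, with 90.7, 19.3 and 20.2 CPM at E-L 36 and 16.2, 16.3 and 18.3 CPM at E-L 35 (adjusted p = 0.0228, and 0.447 without it). In the defence list, 25% of tested members had counts within 0.005 of a whole number in 80% of libraries or more. Its single values are therefore uncertain.

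Small heat shock proteins keep damaged proteins from clumping and are induced by heat, under control of heat shock factors. In this list 6 of 13 tested members fell and 0 rose. Its median log2 fold change was -1.68, and -3.06 once replicate 1 was left out. Summed levels were 1090, 125 and 111 CPM at E-L 36, against 745, 875 and 1230 CPM at E-L 35, so that replicate 1 lay within the E-L 35 range while replicates 2 and 3 were far below it. Without replicate 1, 10 members fell, and in the fit of the 6 libraries alone 1 did. VIT_204s0008g01110, listed as the heat shock factor HSFA2, was low in all 3 libraries, with 6.57, 8.33 and 4.99 CPM at E-L 36, against 24.4, 26.9 and 27 CPM at E-L 35 (log2 fold change -1.98 ± 0.39, SE, adjusted p = 0.000974). VIT_213s0019g02770 had 9.6, 1.07 and 0 CPM at E-L 36, against 22.5, 18.9 and 31.6 CPM at E-L 35 (-2.70 ± 0.81, SE, adjusted p = 0.0158, and -5.51 without replicate 1, adjusted p = 0.00028). VIT_213s0019g03090 had 11.2, 1.81 and 1.53 CPM at E-L 36 and 16.3, 13.1 and 18.7 CPM at E-L 35 (log2 fold change -1.68, adjusted p = 0.0376, and -3.25 without replicate 1), and VIT_213s0019g02840 had 25.9, 5.12 and 4.68 CPM at E-L 36 and 53.6, 25.2 and 33.6 CPM at E-L 35 (log2 fold change -1.63, adjusted p = 0.0256, and -2.93 without replicate 1). Counts within 0.005 of a whole number in 80% of libraries or more were found for 7.69% of its tested members, so its single values are uncertain.

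Lipoxygenases and hydroperoxide lyase make green-leaf aroma compounds, and the deoxyxylulose phosphate route supplies terpenoids. Of 9 tested lipoxygenase members 1 rose and 1 fell. VIT_213s0064g01480, listed as a lipoxygenase, had 0.246, 2.46 and 1.43 CPM at E-L 36, against 4.6, 10.4 and 16.5 CPM at E-L 35 (log2 fold change -2.98 ± 0.68, SE, adjusted p = 0.00306). VIT_212s0059g01060, listed as hydroperoxide lyase, had 887, 608 and 611 CPM at E-L 36 and 540, 460 and 484 CPM at E-L 35 (adjusted p = 0.0283, 0.139 without replicate 1 and 0.246 with library totals alone). Of 4 tested terpenoid members 2 rose and 1 fell, all listed as deoxyxylulose phosphate synthases, the entry enzyme. VIT_205s0020g02130 had 80.2, 51.2 and 43.4 CPM at E-L 36, against 124, 93.3 and 99.6 CPM at E-L 35 (-0.86 ± 0.20, SE, adjusted p = 0.00366). VIT_204s0008g04970 had 25.4, 23.6 and 21.1 CPM at E-L 36, against 15.9, 13.7 and 15.9 CPM at E-L 35 (0.62 ± 0.13, SE, adjusted p = 0.00149).

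Outside the lists, 2640 genes higher and 1821 lower at E-L 36 were called with and without replicate 1, had no overlap between the stages and reached a mean of 10 CPM in the higher stage. Unannotated locus VIT_214s0128g00570 had 12.1, 65.4 and 29.5 CPM at E-L 36, against 0, 0.0909 and 0.218 CPM at E-L 35, where it had 0, 2 and 4 counts (log2 fold change 8.34 ± 0.97, SE, adjusted p = 1.87e-05). VIT_212s0059g00400 had 18.1, 7.9 and 9.47 CPM at E-L 36, against 0, 0.182 and 0.164 CPM at E-L 35 (6.56 ± 1.30, SE, adjusted p = 0.00107). Of the falls, VIT_213s0106g00230 had 0.246, 0.534 and 0.509 CPM at E-L 36, against 6.6, 13.5 and 21.1 CPM at E-L 35 (-5.01 ± 0.53, SE, adjusted p = 8.11e-06). VIT_204s0008g05640 had 0, 0.641 and 0.509 CPM at E-L 36, against 14.5, 9 and 9.72 CPM at E-L 35 (-4.92 ± 0.72, SE, adjusted p = 0.000111, and -4.25 without replicate 1). The files pair none of these 4 with a name.

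The same step in summer Muscat Superior shared no library with that of Victoria and could be tested against it. There 3429 genes were called (18.2%), and the step differed between the cultivars in 1623 of 18842 genes (8.61%), 975 (5.17%) with a higher and 648 (3.44%) with a lower log2 fold change in Victoria. Of the 190 tested list members 15 differed, a share near the 8.61% of all genes, and 13 of them also without E-L 36 replicate 1 of Victoria. The count over all genes moved with single libraries: without that replicate 1 it was 1631 and 1285, and without replicate 3 of E-L 36 it was 566 and 360. It was 542 and 348 without replicate 2 of E-L 35, and 533 and 360 without replicate 3 of E-L 35. In Muscat Superior, too, replicate 1 of E-L 36 stood off, with correlations of 0.9536 and 0.9713 to replicates 2 and 3. How the count depends on single Muscat Superior libraries was not tested.

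The 2 MYBA loci called in Victoria rose there and did not pass the test in Muscat Superior. VIT_202s0033g00390 had 14.6, 34.9 and 24.2 CPM at E-L 36 and 26.4, 30 and 33.6 CPM at E-L 35 in Muscat Superior, and the difference of the steps was 3.83 ± 0.52 (SE, adjusted p = 0.00148, edgeR). VIT_202s0033g00450 differed by 3.57 ± 0.69 (SE, adjusted p = 0.0065). The expansin locus VIT_217s0053g00990 rose in Victoria and fell in Muscat Superior, where it had 220, 301 and 251 CPM at E-L 36 and 761, 737 and 631 CPM at E-L 35 (difference 3.27 ± 0.51, SE, adjusted p = 0.00302). The hexose transporter locus VIT_200s0181g00010 had 9.84, 5.8 and 5.52 CPM at E-L 36 and 14.1, 14 and 13.5 CPM at E-L 35 in Muscat Superior (difference 2.92 ± 0.71, SE, adjusted p = 0.0216). For GRIP22, VIT_206s0004g02560, Muscat Superior libraries held 9160, 15100 and 13100 CPM at E-L 36 and 10400, 12500 and 14300 CPM at E-L 35, and its difference was 2.31 ± 0.52 (SE, adjusted p = 0.0148). HSFA2, VIT_204s0008g01110, fell in Victoria and had a log2 fold change of -0.08 in Muscat Superior that did not pass (difference -1.90 ± 0.55, SE, adjusted p = 0.045). Muscat Superior had 2.86, 11.4 and 6.28 CPM of it at E-L 36 and 8.25, 6.47 and 7.11 CPM at E-L 35. It was thus already low there at E-L 35, where Victoria had 24.4, 26.9 and 27 CPM.

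**Figure D5:**
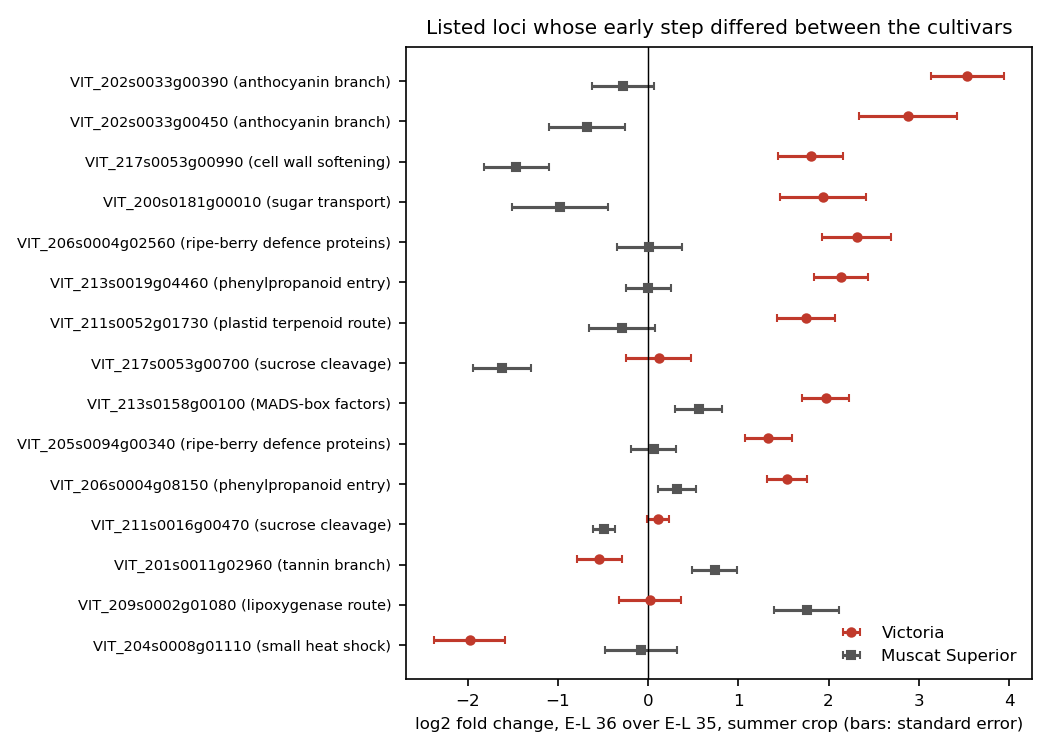
Log2 fold change of E-L 36 over E-L 35 in summer Victoria (red circles) and summer Muscat Superior (grey squares), with standard errors, for the 15 listed loci (rows) whose step differed between the cultivars. The largest difference, 3.83, is that of VIT_202s0033g00390, and in the 3 loci at the bottom Victoria has the lower value.

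The same step was also compared with that of the winter crop of Victoria, in a fit of other libraries and genes, so its counts are not ranked against those between cultivars. The 3 winter E-L 36 libraries had a chi-square of 1.6 to 1.78 per degree of freedom between pairs, close to sampling noise, and were counted as 1 sample, which is assumed to vary like the other groups. The step differed between the crops in 4838 of 20914 genes (23.1%) and in 80 of the 190 tested list members, among them 31 of the 35 stilbene synthase members and 12 of the 17 phenylpropanoid members. VIT_216s0100g00770, a listed stilbene synthase, had 1.56, 15.3 and 13.4 CPM at E-L 36 and 0.55, 0.5 and 0.328 CPM at E-L 35 in summer, but 7.38 CPM at E-L 36 and 25.6, 20.1 and 109 CPM at E-L 35 in winter (difference 7.22 ± 1.49, SE, adjusted p = 0.00171). The cinnamate 4-hydroxylase locus VIT_206s0004g08150, which rose in summer, had 54.4 CPM at E-L 36 and 150, 89.8 and 210 CPM at E-L 35 in winter (difference 3.02 ± 0.52, SE, adjusted p = 0.000355). VIT_217s0053g00990, the expansin, had 21 CPM at E-L 36 and 408, 319 and 283 CPM at E-L 35 in winter (difference 5.82 ± 0.87, SE, adjusted p = 0.000108). Many listed stilbene synthase and phenylpropanoid members share reads and are not separate observations. Counts of differing list members can therefore overstate the number of separate differences between crops. Crop, season and sampling time go together and cannot be told apart.

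The next step of summer Victoria, E-L 38 against E-L 36, uses the same E-L 36 libraries and is given only as values beside the early step. It had 6 called genes of 18842 (0.0318%), and without replicate 1 of both stages 2509 of 19189 (13.1%). Both libraries were left out because, in these same data, each lay nearer to the other stage in most genes. Dropping them draws the stages apart, so adjusted p-values without them are likely too small. VIT_206s0004g02560 (GRIP22) reached 6990, 6160 and 8100 CPM at E-L 38, a late log2 fold change of 1.30, or 1.80 without both replicates 1 (adjusted p = 0.3 and 0.0133). The listed SWEET locus VIT_201s0146g00260 had 651, 626 and 774 CPM at E-L 38 (late log2 fold change -1.25, or -1.65 without both, adjusted p = 0.328 and 0.000184). The abscisic acid hydroxylase locus VIT_202s0087g00710 had 6.75, 2.99 and 3.08 CPM at E-L 38 (-1.42, or -2.47 without both, adjusted p = 0.607 and 0.00294). VIT_202s0033g00390 (MYBA) had 51.5, 31.6 and 23.5 CPM at E-L 38, and VIT_202s0154g00090 (vacuolar invertase) had 23.1, 17.6 and 9.04 CPM, with late log2 fold changes of 0.53 and 0.71 that did not pass.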

How the data were processed

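The authors deposited a table per library with expected counts (estimated reads per gene, fractional where reads were shared), FPKM and a transcript length, per the file headers. The submitters' processing notes name Bowtie, giving no version, and the design text mentions DESeq2. For build, annotation and counting program, the sources used here give no name. Genes without a line were set to 0, and expected counts were rounded.

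Counts of the 18 summer libraries (6 groups) were fitted with edgeR 4.0.16 under R 4.3.3 (quasi-likelihood F test, TMM, filterByExpr, 18842 genes, 12 residual degrees of freedom, common biological coefficient of variation 0.195), and a gene was called at a Benjamini-Hochberg adjusted p below 0.05. All adjusted p-values are from this test unless another is named. CPM are scaled by TMM, while FPKM are as deposited. The crop difference used all 36 libraries, with replicates under a chi-square of 2 per degree of freedom summed, which left 30 samples. Floors of 3 counts equal 0.161 to 0.331 CPM in the 6 libraries and cover counting error only. Scripts were tested on simulated data. Alternatives used DESeq2 1.42.0, limma 3.58.1 on log2(FPKM + 1) and log2(FPKM + 0.1), other scalings, filters and sample sets. In further ones, single summer Victoria libraries of the step were left out.

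The members and the lists were chosen with earlier results of these data known. Named loci are, per list and direction, up to 4 called members with the largest change and a higher mean of at least 5 CPM. Members were added to account for a list, for a difference between cultivars or, in lists with at least 4 such members, for the lowest p of a difference between crops. Outside the lists they are the 2 largest rises and the 2 largest falls described in the text. The members added for cultivars, crops and the late step were chosen after their values were seen.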

Additional observations from a re-analysis of the deposited data

Results flagged for a closer look

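The early step differed between the cultivars in 1623 genes and between the crops in 4838 genes, by a test of the difference itself. Among listed loci, the log2 fold change of Victoria exceeded that of Muscat Superior by 3.83 for VIT_202s0033g00390, 3.57 for VIT_202s0033g00450, 3.27 for VIT_217s0053g00990, 2.92 for VIT_200s0181g00010 and 2.31 for VIT_206s0004g02560. The excess was 2.14 for VIT_213s0019g04460, 2.04 for VIT_211s0052g01730, 1.74 for VIT_217s0053g00700, 1.41 for VIT_213s0158g00100, 1.27 for VIT_205s0094g00340, 1.22 for VIT_206s0004g08150 and 0.60 for VIT_211s0016g00470. Victoria had the lower log2 fold change, by differences of -1.29 for VIT_201s0011g02960, -1.74 for VIT_209s0002g01080 and -1.90 for VIT_204s0008g01110. Without E-L 36 replicate 1 of Victoria, the calls of VIT_211s0016g00470 and VIT_205s0094g00340 were lost (adjusted p = 0.0502 and 0.0521, edgeR).

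Between summer and winter Victoria the differences were 7.22 for VIT_216s0100g00770, 5.82 for VIT_217s0053g00990, 3.02 for VIT_206s0004g08150, -1.62 for VIT_211s0149g00050, -2.13 for VIT_214s0108g01070, -2.24 for VIT_202s0154g00090 and -3.44 for VIT_213s0064g01480. Groups of 3 are too small for a search for single outlying samples by the gap to the nearest other.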

How the results depend on the processing

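Library totals alone gave 2188 genes higher and 6262 lower at E-L 36, log2(FPKM + 1) gave 2106 and 6638 (limma), and log2(FPKM + 0.1) gave 2054 and 6187. The share of higher calls was then 25.9%, 24.1% and 24.9%, with medians over all genes of -0.29, -0.24 and -0.30. The 6 libraries alone called 3125 and 2659. Leaving out single libraries gave 2998 to 3925 higher and 2837 to 4015 lower. For the difference between cultivars these ranges were 533 to 1631 and 348 to 1285, and for that between crops 2144 to 3048 and 1911 to 2795. Cultivar calls were 1540 and 1107 with all 36 libraries, and DESeq2 called 1472 higher and 925 lower. Crop calls were 4150 and 3589 where near-identical winter libraries were kept apart. The late step had 1 higher and 5 lower, and 1152 and 1357 without replicate 1 of both stages, libraries picked by these same data.

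No pairing of samples by replicate number was visible (deviations of same-numbered libraries correlated at -0.09, -0.15 and -0.03). With 3 replicates per stage these values cannot exclude a pairing. With the replicate block the early step had 3320 and 3121 calls, and the cultivar difference 482 and 315. Of 951 values of the 56 named loci that the rule took, under the alternatives, 0 reversed, 807 stayed called and 144 lost the call, 18 of them in the 6 libraries alone. Depth limits loci near 3 counts, such as the flavonoid 3'5'-hydroxylases.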
